A study of Mus musculus with 4 samples.

Results

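D-type cyclins, their kinases CDK4 and CDK6, cyclin E1 with its kinase CDK2, and the retinoblastoma family form the switch by which a cell leaves the resting state and commits to DNA synthesis. D-type cyclins bind CDK4 or CDK6, and the active pairs phosphorylate the pocket proteins RB, p107 and p130. Phosphorylation frees E2F transcription factors to switch on the genes of S phase, and cyclin E with CDK2 completes the step. In mice, loss of the D-type cyclins together, or of Cdk4 and Cdk6 together, impairs blood formation in the embryo, and CDK6 is known in human blood stem cells as a kinase whose level sets how readily a resting cell divides.

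The 10 genes examined were Ccnd1, Ccnd2, Ccnd3, Cdk4, Cdk6, Ccne1, Cdk2, Rb1, Rbl1 and Rbl2. Every probe set that the platform annotation assigned to exactly 1 gene, that gene being among these 10, was taken, which gave 31 of the 45037 probe sets on the array. The series compared hematopoietic stem cells (HSC) with multipotent progenitors (MPP), the stage that HSC give rise to. Both were sorted from C57BL/6 mice within the KSL gate for early blood cells, which includes the receptor c-Kit, and HSC lacked surface CD34 whereas MPP carried it. No treatment or mutation is given in the labels, nor the animals' age, sex or tissue. Each group held 2 samples called biological replicates, with nothing on whether animals were pooled or shared, and p-values therefore cover the spread of these samples alone, which may be technical. Amplification took 2 rounds from the RNA of 3000 cells, and each product was hybridised to 1 Affymetrix Mouse Genome 430 2.0 array. A probe set reports its transcript as an intensity in arbitrary units, and intensities are compared here between arrays within a probe set. Between probe sets they serve to pick the brightest of a gene, to sort probe sets by level and to sum cell type markers.

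The median signal of an array was 26.1 and 26.9 in HSC, against 22 and 21.3 in MPP, and with 4 arrays in all precision is limited. The floor, which is the highest signal an array gave among bacterial control probe sets, was 16.9 and 16.7 in HSC, against 14.9 and 13.6 in MPP. HSC replicate 2 stood apart in 1 measure of RNA quality, a 3' to 5' signal ratio for actin of 9.42, against 4.99 to 5.26 on the other arrays. For Gapdh the ratio was 5.81 on that array and 4.88 to 5.15 on the others, a smaller gap. The labels were checked against marker genes, and 6 of 6 HSC markers were higher in HSC while 3 of 4 MPP markers were lower, the other being Kit, which is in both lists. Of the 5 tested markers of T cells, B cells, and neutrophils and monocytes, limma called none at the adjusted threshold, and 1 had an unadjusted p under 0.05. That was Cd8a at 1440164_x_at, with 44.4 and 46.2 in HSC against 16.01 and 30.3 in MPP (log2 difference 0.86, adjusted p = 0.192). The other T cell markers, Cd3e, Cd3g and Cd4, read under the floor on all 4 arrays. Of the 2 tested stromal and endothelial markers limma called none, and none had an unadjusted p under 0.05. Summed marker intensity for erythroid genes (2 of 4 measured) was 190.0 and 235 in HSC against 66.0 and 64.1 in MPP. For megakaryocyte genes (4 of 4 measured) the sums were 1012 and 738 in HSC against 524 and 371 in MPP, and for macrophage genes (4 of 4 measured) 136 and 115 in HSC against 362 and 608 in MPP. Mast cell genes (3 of 3 measured) summed to 114 and 192 in HSC against 222 and 231 in MPP. In the macrophage list Csf1r set the difference, with 54.0 and 30.9 in HSC against 282 and 552 in MPP (-3.09, adjusted p = 2.95e-04). Of the other macrophage markers, Adgre1 and C1qb were not called (0.12 and 0.44), and C1qa was under the floor on all 4 arrays. The called markers of the other lists were Klf1 among erythroid genes (1.88), Gp9 and Pf4 among megakaryocyte genes (2.26 and 1.28) and Cpa3 among mast cell genes (-0.96). Not called were Epor (0.65) in the erythroid list, Itga2b and Gp1bb (0.39 and -0.20) in the megakaryocyte list and Mcpt8 (-0.28) in the mast cell list. Mcpt8 read 4.96 and 97.6 in HSC against 28.5 and 42.7 in MPP, and Fcer1a was too dim to test. No marker in these 4 lists read 0. Their part in the differences below was not tested.

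Of the 31 probe sets, 27 lay above the filter on dim signals and were tested, and the other 4 were too dim. Among the 27, 6 were higher in HSC and 6 lower at a limma adjusted p under 0.05, and 15 were not called. Across all 27022 probe sets tested, 10.6% were called, 5.96% as higher and 4.65% as lower in HSC. Among the tested member probe sets the share was 44.4%, but probe sets of the same gene are not separate evidence. Ccnd2, Cdk4 and Cdk6 gave 4, 3 and 2 of the calls. By gene, taking the brightest tested probe set, Ccnd2 was higher and Cdk4, Cdk6 and Rbl1 were lower in HSC. That made 4 of 10 genes, where 13.6% of all 12382 genes were called (7.71% higher and 5.9% lower). Groups did not overlap for 19 of the 27 probe sets, or 70.4%, while 54.6% of all tested probe sets showed such separation. Over all tested probe sets the median log2 difference was 0.11, and that shift varied with level, from 0.22 in the dimmest of 10 level classes to -0.10 in the brightest. As the samples are bulk RNA, fewer cells with a transcript and less of it per cell cannot be told apart.

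**Figure D1:**
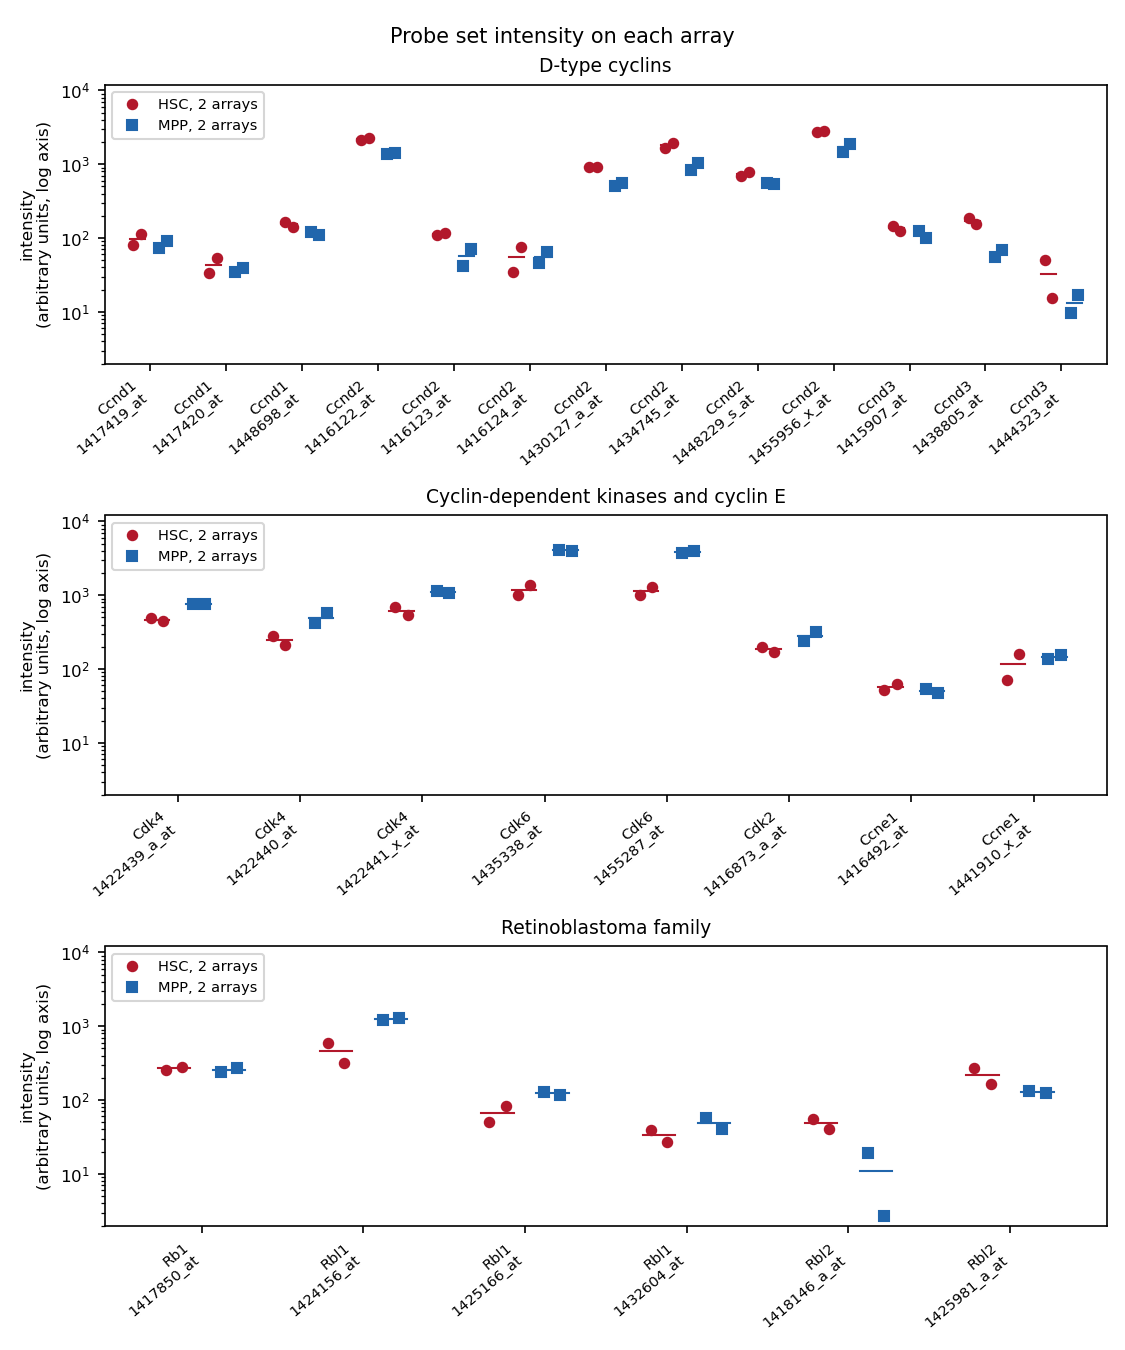
Intensity in arbitrary units (log axis) of the 27 tested probe sets on each array, with HSC as circles, MPP as squares and each group's mean as a short line. The 2 brightest Cdk6 probe sets read 1007 to 1355 in HSC against 3672 to 4146 in MPP, while Ccnd2 at 1455956_x_at read 2706 and 2785 in HSC against 1472 and 1901 in MPP.

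Among the D-type cyclins, Ccnd2 was higher in HSC. Cyclin D2 is the D-type cyclin induced by cytokine signals in many blood cells. Its brightest probe set, 1455956_x_at, read 2706 and 2785 units in HSC, against 1472 and 1901 in MPP. Both HSC arrays lay above both MPP arrays, at means of 2745 ± 55.8 in HSC and 1687 ± 303 in MPP (SD, n = 2 each). The difference was 0.71 on the log2 scale (SE 0.17, limma adjusted p = 0.0204), or 1.64-fold.

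Further Ccnd2 probe sets moved the same way. At 1434745_at the HSC arrays read 1647 and 1962, against 845 and 1046 on the MPP arrays, a log2 difference of 0.93 (SE 0.17, adjusted p = 0.00655). At 1416122_at they read 2138 and 2285 in HSC, against 1372 and 1399 in MPP, and at 1430127_a_at 913 and 915 in HSC, against 501 and 562 in MPP. These last differences were 0.67 and 0.78 (adjusted p = 0.0158 and 0.0124), so 4 of 7 Ccnd2 probe sets were called, all of them higher. Against the shift of their own level class, the 4 stood 0.77 to 1.03 higher in HSC.

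The other 3 Ccnd2 probe sets were not called. The groups were separated at 1416123_at, with 112 and 118 in HSC against 41.9 and 70.9 in MPP (log2 difference 0.99, adjusted p = 0.0552), and at 1448229_s_at, with 702 and 785 against 563 and 543 (0.42, adjusted p = 0.144). At 1416124_at they overlapped, with 35.2 and 74.7 in HSC against 46.2 and 65.5 in MPP (-0.08, adjusted p = 0.921). The HSC arrays lay on either side of the MPP values there.

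The Ccnd2 calls depended on the arrays and settings used. At 1455956_x_at the call ended without MPP replicate 1 (log2 difference 0.53, adjusted p = 0.308) and, narrowly, without MPP replicate 2 (0.90, adjusted p = 0.0502). It also ended with equal array medians (0.48, adjusted p = 0.0904) and with no filter on dim probe sets (0.71, adjusted p = 0.0786). This call held in 7 of 12 alternatives. That of 1416122_at held in 8 of 13, ending without MPP replicate 1 or 2 (0.66 and 0.69, adjusted p = 0.172 and 0.155), once array medians were made equal (0.44, adjusted p = 0.0754) and, narrowly, with no filter (0.67, adjusted p = 0.0526). That of 1430127_a_at held in 8 of 12, ending without MPP replicate 1 or 2 (0.70 and 0.86, adjusted p = 0.148 and 0.0642) and once array medians were made equal (0.54, adjusted p = 0.0581). The call of 1434745_at held in 11 of 13 and ended without MPP replicate 1 (0.78, adjusted p = 0.0980). All 4 calls also ended without the trend in the prior variance (adjusted p = 0.111 to 0.174).

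Ccnd3, the D-type cyclin with roles in red cell and lymphocyte precursors, gave different answers on different probe sets. At 1438805_at the HSC arrays read 188 and 155, against 55.4 and 69.0 on the MPP arrays. That is 2.60-fold higher in HSC, a log2 difference of 1.38 (SE 0.25, adjusted p = 0.00519), and it was called in 13 of 13 alternatives. The brightest probe set, 1415907_at, read 146 and 125 in HSC against 125 and 101 in MPP, values that overlapped. Its log2 difference was 0.25 (95% interval -0.27 to 0.77, adjusted p = 0.562). The remaining one, 1444323_at, was above the floor on 1 array of each group, with 49.9 and 15.6 in HSC against 9.71 and 17.0 in MPP. All 3 differences were above 0, but 1 of 3 was called, and the files do not say which part of the transcript each probe set reads.

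Ccnd1, the D-type cyclin best known from epithelial and mesenchymal cells, did not pass the test on any of its 3 probe sets, and none had an unadjusted p under 0.05. The brightest, 1448698_at, read 166 and 142 in HSC, against 122 and 109 in MPP. The HSC arrays lay above the MPP arrays, at a log2 difference of 0.39 (95% interval -0.10 to 0.89, adjusted p = 0.320). On 1417419_at and 1417420_at the groups overlapped, with differences of 0.21 and 0.17 (adjusted p = 0.687 and 0.808). The interval at 1448698_at holds the differences of 0.67, 0.71 and 0.78 at called Ccnd2 probe sets and leaves out the 0.93 at 1434745_at.

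**Figure D2:**
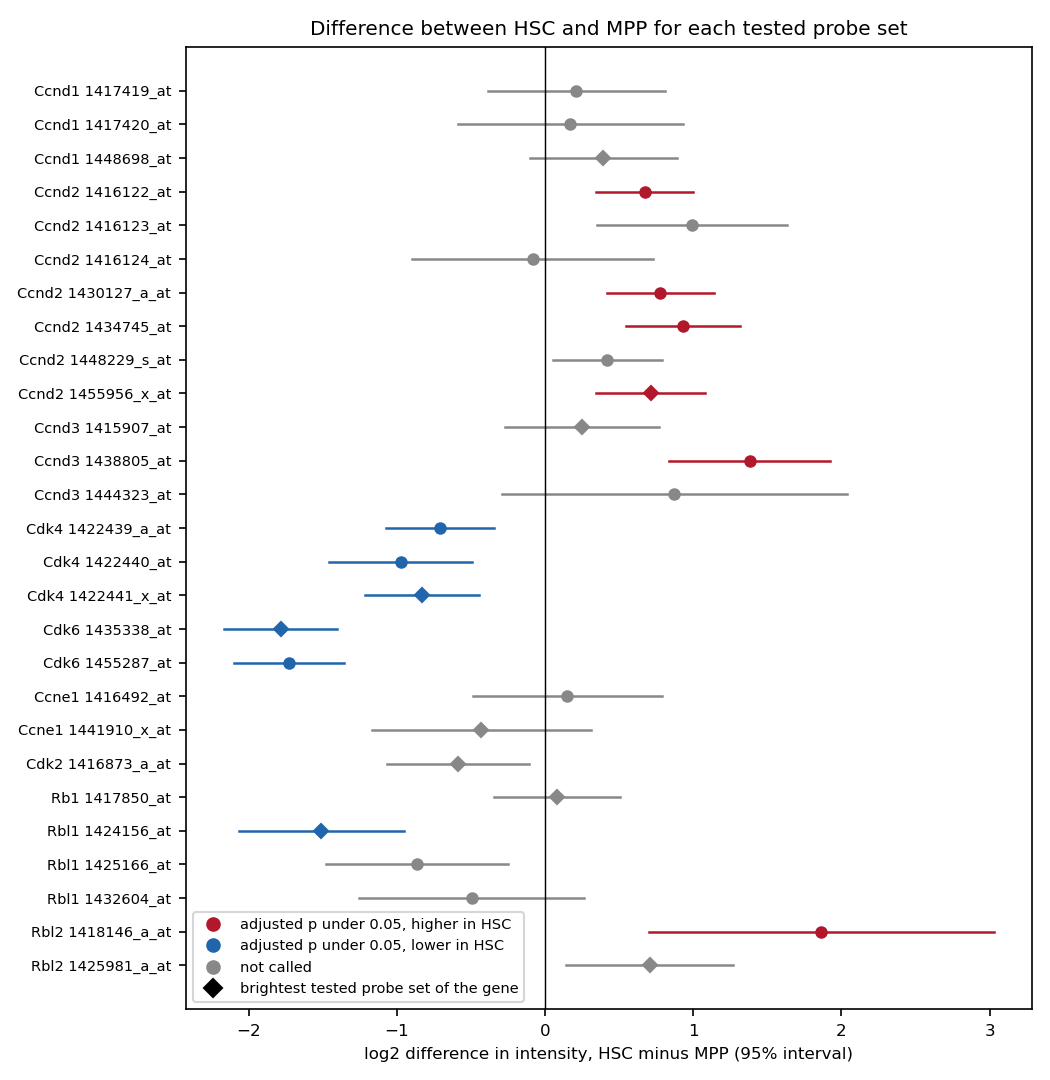
Log2 difference in intensity, HSC minus MPP, with its 95% interval for each of the 27 tested probe sets. Points right of 0 were higher in HSC, diamonds mark the brightest tested probe set of each gene, and the 12 coloured points had an adjusted p under 0.05, with Cdk6 at -1.78 and -1.73 on the left and Rbl2 1418146_a_at at 1.87 on the right.

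The kinases that D-type cyclins activate were lower in HSC. Cdk6 had the 2 smallest p-values among the members. Its probe set 1435338_at read 1009 and 1355 units in HSC, against 4146 and 3943 in MPP. Group means were 1182 ± 244 in HSC and 4045 ± 143 in MPP (SD, n = 2 each). The log2 difference was -1.78 (SE 0.17, adjusted p = 1.35e-04), 3.44-fold lower in HSC.

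The second tested Cdk6 probe set was also lower in HSC. At 1455287_at the HSC arrays read 1007 and 1309, against 3672 and 3959 on the MPP arrays, a log2 difference of -1.73 (SE 0.17, adjusted p = 1.42e-04). Both Cdk6 probe sets were called in 13 of 13 alternatives, with log2 differences between -2.02 and -1.54. These probe sets share an annotated source sequence, so they are not separate evidence. Another Cdk6 probe set, 1460291_at, was too dim to test, with 5.66 and 2.30 units in HSC against 10.6 and 22.6 in MPP, and 1 array of the 4 was above the floor.

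Cdk4, the partner kinase of Cdk6 and a known MYC target, was lower in HSC on all 3 of its probe sets. At 1422441_x_at the HSC arrays read 695 and 546, against 1125 and 1079.8 on the MPP arrays, a log2 difference of -0.83 (SE 0.17, adjusted p = 0.0121). At 1422440_at they read 280.5 and 215 in HSC, against 417 and 572 in MPP (-0.98, adjusted p = 0.0170), and at 1422439_a_at 488 and 446 in HSC, against 765 and 768 in MPP (-0.71, adjusted p = 0.0205). The groups were separated on each, and HSC were 1.63-fold to 1.97-fold lower.

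The Cdk4 calls held in 9 of 12, 11 of 13 and 9 of 12 alternatives for 1422441_x_at, 1422440_at and 1422439_a_at. The call of 1422441_x_at ended without MPP replicate 1 (log2 difference -0.80, adjusted p = 0.0972) and without MPP replicate 2 (-0.86, adjusted p = 0.0739). That of 1422439_a_at ended without MPP replicate 1 or 2 (-0.71 in both cases, adjusted p = 0.148 and 0.158), and that of 1422440_at without MPP replicate 2 (-0.75, adjusted p = 0.173). All 3 calls also ended without the trend in the prior variance (adjusted p = 0.128 to 0.146). With 1 MPP array left, the spread came from the HSC arrays alone.

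Promoter letters of both kinases are shown because the genes moved together and Cdk4 is a known target of MYC, which binds the E-box CACGTG. The 250 bases before the RefSeq start (GRCm38.p6) were searched on both strands for CACGTG and for the E2F letters TTTNNCGC, where N is any base. Capitals mark each match. The plus-strand windows are chr10:127063285-127063534 for Cdk4 and chr5:3343643-3343892 for Cdk6.
Cdk4: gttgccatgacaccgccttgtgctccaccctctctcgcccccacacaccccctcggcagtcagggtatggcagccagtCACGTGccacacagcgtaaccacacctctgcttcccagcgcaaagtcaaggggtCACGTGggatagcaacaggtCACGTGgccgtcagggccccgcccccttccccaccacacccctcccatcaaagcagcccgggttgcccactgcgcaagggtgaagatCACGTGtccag
Cdk6: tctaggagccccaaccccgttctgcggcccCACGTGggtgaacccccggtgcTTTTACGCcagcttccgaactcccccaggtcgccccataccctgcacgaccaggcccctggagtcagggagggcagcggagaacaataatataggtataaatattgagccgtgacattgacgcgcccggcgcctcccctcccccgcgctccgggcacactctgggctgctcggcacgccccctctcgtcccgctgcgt

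The Cdk4 window held 4 E-boxes, beginning 172, 118, 98 and 11 bases before the start, and no E2F match. Of 32851 promoter windows in the table, 6.02% held an E-box and 7 (0.0213%) held 4 or more. The cut of 4 is the count in the Cdk4 window itself, so that share is a description. The Cdk6 window held 1 E-box, 220 bases before the start, and 1 E2F match, TTTTACGC, 198 bases before it. E2F letters occurred in 4.28% of all windows. Such matches describe the letters and do not show that a factor binds. Myc intensity itself was 967 and 1171 in HSC against 1646 and 1482 in MPP, and it was not called (log2 difference -0.55, adjusted p = 0.0594). Mycn, a factor of the same family, went the other way, with 1696 and 1600 in HSC against 459 and 271 in MPP. Its log2 difference was 2.20 (limma adjusted p = 2.11e-04). A part of either factor in the Cdk4 difference was not tested.

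Cyclin E1 and CDK2, which act after the D-type cyclins, did not pass the test. Cdk2 on 1416873_a_at read 201 and 168 units in HSC, against 243 and 319.7 in MPP. The groups were separated, at a log2 difference of -0.58 (95% interval -1.06 to -0.11, adjusted p = 0.122), and the call was made in 1 of 12 alternatives, with equal array medians (-0.82, adjusted p = 0.0392). A second Cdk2 probe set, 1447617_at, was under the floor on all 4 arrays.

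Ccne1 showed no call on either probe set. At 1416492_at it read 52.2 and 62.8 in HSC against 54.3 and 47.9 in MPP, a log2 difference of 0.15 (95% interval -0.49 to 0.79, adjusted p = 0.798). At 1441910_x_at the HSC arrays differed from each other more than the groups did, with 70.1 and 162 in HSC against 138 and 155 in MPP. That difference was -0.43 (adjusted p = 0.472), and it turned with the HSC array used. Without HSC replicate 2 it was -1.002 and called (adjusted p = 0.0272), and without HSC replicate 1 it was 0.14 (adjusted p = 0.763). The related gene Ccne2 was lower in HSC (87.7 and 109.6 units in HSC against 267 and 296 in MPP), as given with the pathway lists.

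In the retinoblastoma family, 1 gene was called on its brightest probe set. Rbl1, which encodes p107, the pocket protein typical of dividing cells, was lower in HSC. Its brightest probe set, 1424156_at, read 596 and 319 units in HSC, against 1228 and 1276 in MPP. Both HSC arrays lay below both MPP arrays, though the HSC arrays were 457 ± 196 and the MPP arrays 1252 ± 34.4 (SD, n = 2 each). The log2 difference was -1.51 (SE 0.25, adjusted p = 0.00355), 2.85-fold lower in HSC.

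HSC replicate 2, the array with the high actin ratio, was the lower of the HSC arrays at 1424156_at. Without it the difference was -1.06 and still called, and without HSC replicate 1 it was -1.95, also called. The call held in 12 of 13 alternatives and ended without the trend in the prior variance (-1.51, adjusted p = 0.0829). On 1425166_at the pattern within HSC was the other way round, with 50.9 and 81.8 in HSC against 127 and 119 in MPP (-0.86, adjusted p = 0.0769). On 1432604_at the HSC arrays read 39.4 and 27.2, against 57.8 and 40.8 on the MPP arrays (-0.49, adjusted p = 0.419). So all 3 tested Rbl1 probe sets had both HSC arrays below both MPP arrays, and 1 was called. Separation in either direction was common, at 54.6% of all tested probe sets. Another, 1454293_at, was under the floor on all 4 arrays.

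The Rbl1 promoter is shown because p107 is a known E2F target and its window held a pair of E2F matches. The window is chr2:157204535-157204784 on the minus strand, GRCm38.p6, written 5′ to 3′ along the gene, with the E2F letters in capitals.
Rbl1: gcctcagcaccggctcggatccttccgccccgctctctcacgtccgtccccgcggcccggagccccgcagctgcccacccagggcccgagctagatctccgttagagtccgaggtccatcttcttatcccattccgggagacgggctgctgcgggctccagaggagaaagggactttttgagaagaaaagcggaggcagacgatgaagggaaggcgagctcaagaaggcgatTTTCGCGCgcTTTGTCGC

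The matches TTTCGCGC and TTTGTCGC begin 18 and 8 bases before the start. Of all windows, 74 (0.225%) held 2 or more, a share given as a description because this window was shown for its pair. RefSeq entries were found for 7 of the 10 genes, in 8 windows, and the 3 windows with an E2F match were those of Cdk6, Cdk2 and Rbl1. In Cdk2 it lay on the other strand, as GCGGGAAA, 140 bases before the start. The windows of Ccnd3, Cdk4, Ccne1 and Rbl2 held none of these letters. Ccnd1, Ccnd2 and Rb1 were the other members.

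Rbl2, which encodes p130, the pocket protein typical of resting cells, was higher in HSC on 1 of its 2 probe sets. At 1418146_a_at the HSC arrays read 55.9 and 41.0 units, against 19.1 and 2.71 on the MPP arrays. MPP replicate 2 was under the floor, MPP replicate 1 slightly above it, and both HSC arrays were higher. The filter on dim signals used the mean level over all arrays, and the MPP values alone would have fallen under it. So the probe set was tested only through its HSC values, which favours a call of higher in HSC. The log2 difference was 1.87 (SE 0.52, adjusted p = 0.0470). This call ended without MPP replicate 2 (1.10), without HSC replicate 1 (1.67) and without HSC replicate 2 (2.06). Processing mattered too, as the call ended with a pseudocount of 1, no filter on dim probe sets, quantile normalization, equal array medians or no trend. It held in 3 of 11 alternatives in all, and its value ranged from 1.09 to 2.63.

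The brighter Rbl2 probe set, 1425981_a_at, read 271 and 166 in HSC, against 131 and 125 in MPP. The groups were separated at a log2 difference of 0.71 (95% interval 0.14 to 1.27, adjusted p = 0.113), so the direction was that of the dim probe set without a call. It was called without HSC replicate 2 (1.05, adjusted p = 0.0121) and with the replicate number as a block (0.71, adjusted p = 0.0267). With the mean of both probe sets, Rbl2 was higher in HSC by 1.28 (limma adjusted p = 0.0301). That mean includes the dim probe set, whose MPP values were near or under the floor, so it is not separate evidence.

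Rb1, which encodes RB itself, read 257 and 279 units in HSC on 1417850_at, against 237 and 270.0 in MPP. The values overlapped, at a log2 difference of 0.08 (95% interval -0.35 to 0.50, adjusted p = 0.846). That interval leaves out a difference of the size measured for Rbl1. A second Rb1 probe set, 1444400_at, was under the floor on all 4 arrays.

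**Figure D3:**
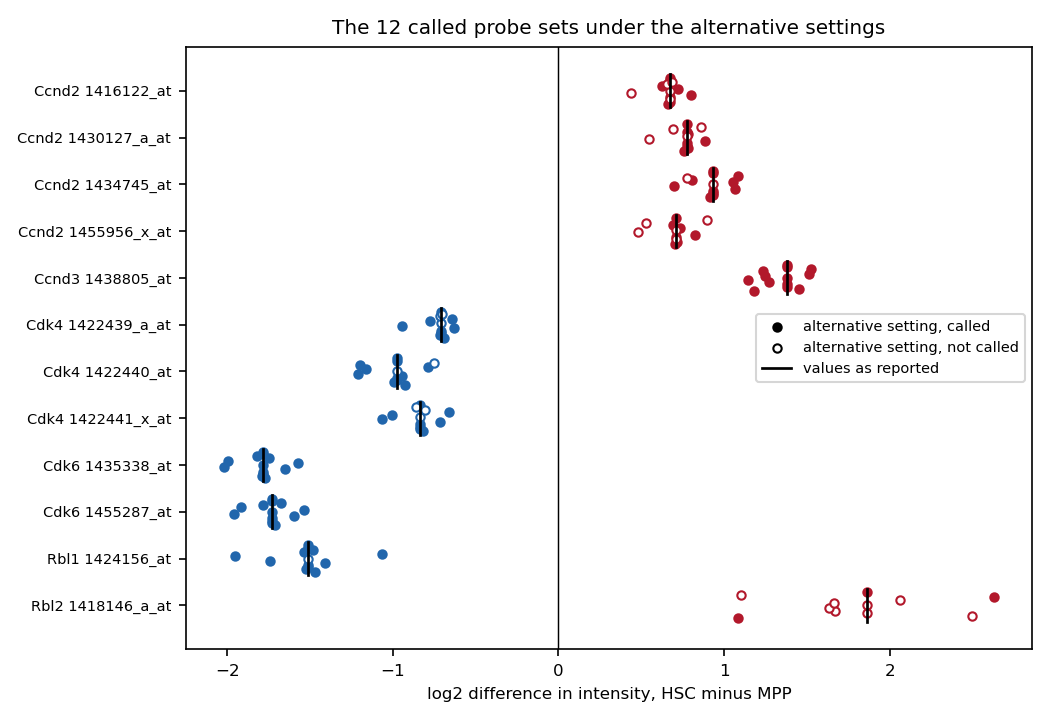
Log2 difference, HSC minus MPP, of the 12 called probe sets under each alternative setting (points, filled where the adjusted p was under 0.05) and as reported (black lines). Cdk6 and Ccnd3 1438805_at stayed called throughout, Rbl2 1418146_a_at was called in 3 of 11 alternatives, and none of the 12 changed direction.

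By profile over the 4 arrays, the genes nearest to the called members were named as a description. After centring log2 values on each gene's own mean, Dock9, Rgs14 and Lrp10 lay closest to Ccnd2 among 11653 genes, at Euclidean distances of 0.0181, 0.0210 and 0.0419. Closest to Cdk6 were Knstrn, Cdca3 and Cdc6, at 0.0586, 0.0813 and 0.118. Knstrn and Cdca3 act in mitosis and Cdc6 in the loading of replication origins. Cdc6 read 105 and 135 units in HSC, against 428 and 378 in MPP. With 4 arrays, many genes that separate the groups by a like amount look alike.

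Around the members, 8 lists of pathway genes were read from the same fit, with 72 genes tested. The lists were written with earlier results of these data known, so their counts are a description. Genes of S phase that E2F factors are known to control were lower in HSC, 18 of 19 tested with none higher. Of all genes tested, 5.9% were called lower and 7.71% higher, shares that also serve for the other lists. The median log2 difference of these S-phase genes was -1.10, against 0.10 for all genes tested. Tk1, a thymidine kinase, read 123 and 118 units in HSC against 508 and 490.5 in MPP (-1.995, SE 0.19, adjusted p = 1.26e-04). Mcm2, a subunit of the replicative helicase, read 616 and 586 in HSC against 2052 and 1654 in MPP (-1.61). The gene without a call was Tyms, thymidylate synthase, at -0.80 (adjusted p = 0.194). Genes beyond the naming rule, which are the single cell type markers, Tyms, Tfdp1, Ccne2, Foxo1, E2f1 and Myc, were named after their values were seen.

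E2F and DP factors had 3 of 10 members lower and none higher, with a median of -0.59. E2f8, an atypical E2F that represses its targets, read 118 and 126 units in HSC against 855 and 851 in MPP (-2.75, adjusted p = 1.25e-05). E2f7, of the same kind, was at -1.78, and Tfdp1, a dimer partner of E2F factors, at -1.02 (adjusted p = 0.00314 and 0.00520). E2f1, the classical activator, was at -0.80 without a call (adjusted p = 0.0824). Other S-phase cyclins and kinases had 3 of 4 tested genes lower, Ccna2 at -2.28, Cdk1 at -2.33 and Ccne2 at -1.47 (adjusted p = 1.30e-04, 5.57e-04 and 0.00187).

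CDK inhibitors went in both directions, 1 of 6 tested higher and 2 lower, where 7.71% and 5.9% of all genes were called so. Cdkn1c, which encodes p57, read 218 and 279 units in HSC against 30.4 and 22.4 in MPP (2.97, adjusted p = 9.06e-05). Cdkn1a, which encodes p21, read 14.6 and 33.0 in HSC against 100.05 and 155 in MPP (-2.20, adjusted p = 0.00368), with 1 HSC array above the floor. Cdkn2c, which encodes the CDK4 and CDK6 inhibitor p18, read 58.3 and 57.2 in HSC against 156 and 134 in MPP (-1.24, adjusted p = 0.00868).

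The remaining lists held fewer calls, to be read beside the 7.71% higher and 5.9% lower of all genes. Of 5 tested CDK activators and chaperones, Cdc25a, a phosphatase that activates CDK2, was lower (-0.86, adjusted p = 0.0162). Of 9 genes for turnover of cyclins and RB proteins, Cks1b and Skp2, which act together to degrade CDK inhibitors, were lower (-0.97 and -0.91, adjusted p = 0.00236 and 0.0353). None of the 7 genes of the MuvB core, which pairs with p107 and p130, and its partners was called by limma at the adjusted threshold, while 3 had an unadjusted p under 0.05, all lower. The 2 with the smallest p were Lin54 at -0.71 and Lin9 at -0.73 (adjusted p = 0.0800 and 0.0863). Of 12 upstream transcription regulators, some of which act on D-type cyclin genes only indirectly, 3 were higher. Mllt3, a chromatin reader, was at 3.56, Mycn, a MYC family factor, at 2.20, and Foxo1, a factor active in resting cells, at 1.23 (limma adjusted p = 2.26e-06, 2.11e-04 and 0.0125). Mllt3 was also among the HSC markers used to check the labels, so its call here is not separate evidence.

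**Figure D4:**
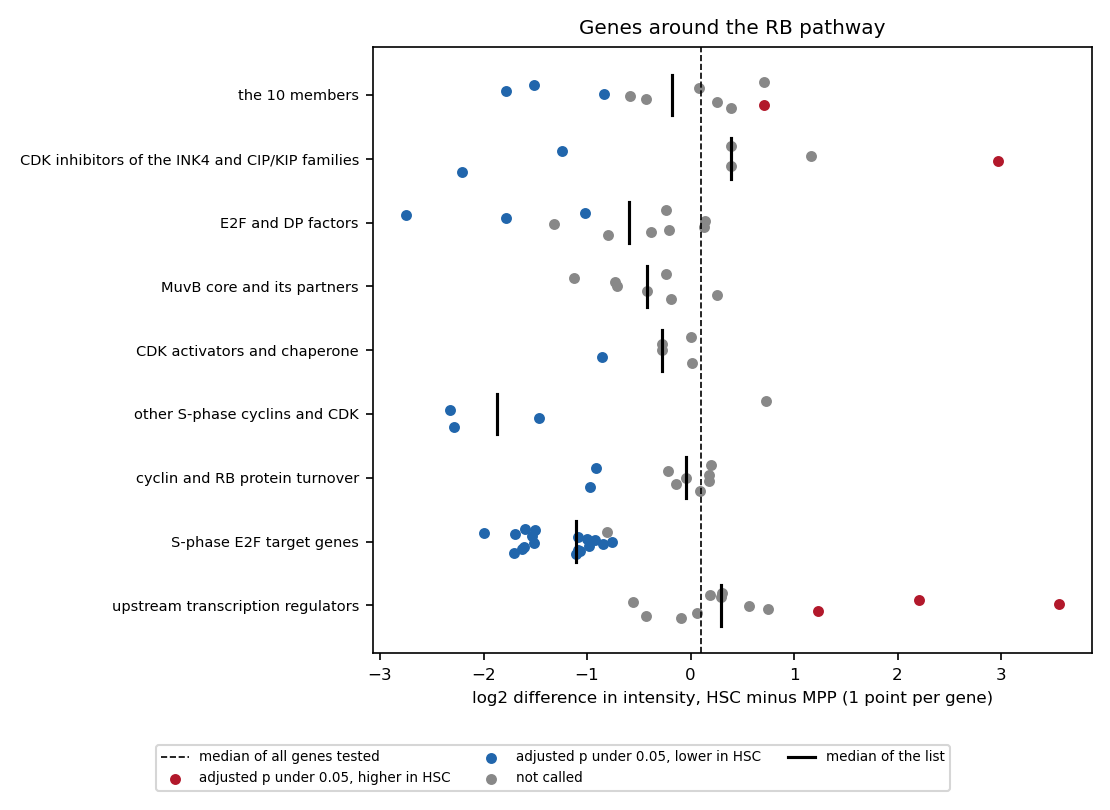
Log2 difference in intensity, HSC minus MPP, for the 10 members by their brightest probe set and for 8 lists of pathway genes, 1 point per gene, with list medians as black lines and the median of all 12382 genes as a dashed line. The S-phase E2F target genes sit left of the dashed line, with 18 of 19 called lower, while the 10 members spread to both sides.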

How the data were processed

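The files hold the authors' deposited intensity values for the probe sets of 4 Affymetrix arrays, linear and in arbitrary units. For the signal software, the sources used here give no name. Leaving out 2% of values at each end, every array averaged near 100.0, so the deposited values had been scaled to one level. Control probe sets (64 of 45101) were left out. Names came from the platform annotation, updated through gene identifiers to RefSeq.

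The log2 scale was used after adding a pseudocount of 6.01 (0.25 of the median of all values), so folds of dim genes are understated. Array medians lay within 0.271 of each other on that scale, so nothing further was normalized. The lowest 40% of probe sets by mean level were left out. The comparison of HSC with MPP used R 4.3.3 and the package limma 3.58.1 (lmFit, then eBayes with a trend, 2 residual and 8.48 prior degrees of freedom), 2-sided, with Benjamini-Hochberg adjustment over all tested probe sets and a threshold of 0.05. The script was tested on simulated data. Probe sets ending in _a_at read several transcripts, and those in _s_at or _x_at can also read other genes.

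Members and lists were chosen with earlier results of these data known. Named were all members, from each list up to 4 genes (the 2 smallest p per direction among those called, otherwise the 2 smallest p), and the 3 nearest profiles of the called member with the smallest p in each direction. Replicate numbers were not used to pair arrays. Alternatives covered pseudocount, filter, normalization, trend, probe set type, gene summary, block and leaving out arrays.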

Additional observations from a re-analysis of the deposited data

How the results depend on the processing

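The main counts were 2868 probe sets, 12 member probe sets, 4 member genes and 33 list genes. Without the trend in the prior variance these were 1007, 3, 1 and 18, the 3 being Cdk6 1435338_at, Cdk6 1455287_at and Ccnd3 1438805_at. With no filter on dim probe sets 1697 probe sets were called in all, and without probe sets ending in _x_at, _s_at or _a_at 7 of 18 member probe sets. Leaving out 1 array gave 1594 to 3919 probe sets, 6 to 14 member probe sets, 2 to 6 member genes and 25 to 35 list genes, the lowest counts of members being those without an MPP array. With equal array medians the split of all calls was 1020 higher and 2379 lower, against 1611 and 1257, the median tested probe set was at -0.13, and 2 member probe sets were higher and 8 lower. With a replicate block 4358 probe sets, 15 member probe sets, 5 member genes and 38 list genes were called. The same-numbered arrays' deviations correlated at 0.0270, and the numbers are not stated to pair samples.

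No called member probe set reversed; reversals concerned uncalled differences. With equal array medians Ccnd1 1417419_at, Ccnd1 1417420_at, Ccne1 1416492_at and Rb1 1417850_at were at -0.023, -0.062, -0.082 and -0.15. After quantile normalization Ccnd1 1417420_at and Ccne1 1416492_at were at -0.036 and -0.050. Leaving out 1 array gave -0.025 to 0.45 for Ccnd1 1417419_at, -0.12 to 0.46 for Ccnd1 1417420_at, -0.57 to 0.40 for Ccnd2 1416124_at, -1.002 to 0.14 for Ccne1 1441910_x_at and -0.013 to 0.17 for Rb1 1417850_at. Ccne1 was at 0.15 without probe sets ending in _x_at, _s_at or _a_at, which left its other probe set. Otherwise the cause was not tested. Low signal limits Ccnd3 1444323_at, Rbl2 1418146_a_at and the 4 untested probe sets, which lay under the floor on every array but 1.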
